A study of Mus musculus with 16 samples.

Results

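This account concerns 1 comparison in dorsal root ganglia of the mouse: whether genes respond to complete Freund's adjuvant (CFA) differently in TrkA/C knock-in (KI) mice than in wild-type (WT) mice. The comparison is the interaction of genotype and injection, (KI CFA minus KI vehicle) minus (WT CFA minus WT vehicle), and it uses 16 of the 16 libraries in the series, chosen by the 4 groups named in the sample titles. All mice were C57BL/6, 10 to 12 weeks old, and received CFA or vehicle, called saline in the titles, into the ankle joint 14 days before the ganglia were taken; CFA gave a monoarthritis. WT vehicle, WT CFA, KI vehicle and KI CFA each hold 4 libraries. Every library is poly-A RNA from the L4, L5 and L6 ganglia of the injected side, pooled as 6 ganglia from 2 mice of 1 group, so a library averages over a pair of animals. The knock-in is named TrkA/C, TrkA-C or TrkAC, and neither the structure of the allele nor the sex of the mice is given in the sources used here. A negative interaction means that the CFA minus vehicle difference was lower in KI than in WT, and a positive one that it was higher.

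Dorsal root ganglia hold the cell bodies of sensory neurons together with satellite glia, Schwann cells and resident immune cells. Neurotrophins are growth factors that act on these neurons through the Trk receptor tyrosine kinases and the shared low-affinity receptor p75, the product of Ngfr. Neurotrophin signalling shapes the survival and the sensitivity of these neurons, and neurotrophin-3 acts mainly through TrkC, the product of Ntrk3, which marks proprioceptors. CFA, a suspension of killed mycobacteria in oil, provokes a lasting local inflammation and is a standard model of arthritic pain.

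Counts per library ran from 22742209 to 40910947, with overlapping ranges in the 4 groups. Neuron markers such as Avil, Prph and Tubb3 were high in every library, and the spinal cord markers Mog, Chat and Slc6a5 were at 0 in 13, 7 and 12 of the 16 libraries. Several libraries stood apart and are named beside the results they touch: WT CFA 2 in interferon-stimulated genes, KI CFA 3 in neutrophil and marrow genes, KI vehicle 1 and 4 in skeletal muscle genes, WT CFA 1 and 2 in axon injury genes, and WT vehicle 4 in short against long genes. WT CFA 1 carries a genotype entry of knock-in against its WT title, and it was kept in the group of its title. Ntrk3, the gene for TrkC, checks the labels. It was at 55.6, 44.7, 50.5 and 29.3 CPM (counts scaled to library size with TMM factors) in WT vehicle and 48.4, 61.4, 45.3 and 44.4 CPM in WT CFA. In KI vehicle it was at 116, 127, 108 and 138 CPM, and in KI CFA at 99.1, 106, 121 and 112 CPM. The 8 KI libraries all lay above the 8 WT libraries, and WT CFA 1, at 48.4 CPM, lay among the WT libraries.

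No gene passed the test of the interaction. Of 15507 genes tested with edgeR's quasi-likelihood test, 0 (0%) had an adjusted p under 0.05, with a smallest adjusted p of 0.718; 976 (6.29%) had an unadjusted p under 0.05, 454 of them positive (2.93%) and 522 negative (3.37%). DESeq2 and limma-voom also called 0 genes, with 1032 and 1102 genes at an unadjusted p under 0.05. The median interaction over all genes was 0.0037 on the log2 scale, the median size was 0.13, and the median standard error (SE) was 0.14. For 8638 genes (55.7%) the 95% confidence interval lay within 0.5 log2 units on either side of 0, so a larger difference in response was outside the interval for those genes, while for the remaining genes the intervals also allow larger ones. Adding the number at the start of each source label, low or high within genotype, to the model left 0 genes called and moved the count at an unadjusted p under 0.05 to 2113 (13.6%). The labels do not say what that number stands for. Without WT CFA 1, the library with the conflicting genotype entry, 0 genes were called and 778 had an unadjusted p under 0.05 by edgeR.

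The separate responses to CFA also had no gene that passed the adjusted test by edgeR with all libraries. In WT, 0 genes (0%) passed an adjusted p of 0.05 by edgeR and 1079 (6.96%) had an unadjusted p under 0.05, 547 of them higher with CFA (3.53%) and 532 lower (3.43%). In KI edgeR called 0 (0%) and 881 (5.68%) had an unadjusted p under 0.05, 341 of them higher (2.2%) and 540 lower (3.48%). DESeq2 called 24 genes in WT and 15 in KI, limma-voom called 1 gene in WT, and edgeR called 53 genes in KI when KI vehicle 2 was left out and 2 in WT when WT CFA 1 was left out. Across genes, the CFA differences of the 2 genotypes, which share no library, had a Pearson r of 0.410, a description over genes that are not independent of each other. All tested genes entered it, including the skeletal muscle genes described below, whose median CFA difference was -2.67 in WT and -4.22 in KI. The part of muscle genes in this r was not tested. Genes with an unadjusted p under 0.05 in both genotypes numbered 77 (0.497%) with the same sign and 26 (0.168%) with opposite signs, 12 higher with CFA in WT and lower in KI, and 14 the reverse.

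The genes described first are the 20 with the smallest interaction p among genes averaging 1 CPM or more. None passed the adjusted test, each having an adjusted p of 0.718 by edgeR, so their values are given as descriptions and the order of p chose them. Their CFA differences had opposite signs in WT and KI for 20 of 20, 13 interactions were negative and 7 positive, and the largest unadjusted p was 0.00198. The CFA and vehicle libraries did not overlap for 10 of the 20 in WT, against 3.02% of all genes, and for 13 in KI, against 4.32%. For 5 genes (Ahr, Wdcp, Zcchc17, D130009I18Rik and A630072M18Rik) they overlapped in neither genotype. Opposite signs and separated groups are favoured by choosing genes by p in these same libraries. These counts are therefore no evidence of an interaction. In bulk tissue, fewer cells of a type and less RNA per cell cannot be told apart.

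Ahr, at chr12:35497979-35534989 on GRCm38.p6, encodes the aryl hydrocarbon receptor, a transcription factor activated by small ligands. Its level was 17.4, 17.5, 17.9 and 15.4 CPM in WT vehicle and 22.8, 22.6, 22.9 and 19.2 CPM in WT CFA. In KI vehicle it was 19.6, 19.2, 19.4 and 19.6 CPM and in KI CFA 18.9, 18.8, 17.1 and 17.95 CPM. All 4 WT CFA libraries lay above all WT vehicle libraries, with WT CFA 4 the lowest of them, and all 4 KI CFA libraries lay below the narrow range of KI vehicle. The CFA difference was 0.36 ± 0.07 (log2, SE) in WT and -0.10 ± 0.07 in KI, an interaction of -0.46 ± 0.10 (95% interval -0.67 to -0.24, unadjusted p = 0.000298, adjusted p = 0.718, edgeR), the smallest p among these genes.

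2 receptor genes of pain signalling were among the 20, with different patterns. Prokr2, at chr2:132369705-132385502, encodes a receptor for prokineticins, secreted peptides that sensitise nociceptors. Prokr2 was at 16.2, 14.9, 15.7 and 13.7 CPM in WT vehicle and 18.8, 22.4, 27.4 and 20.2 CPM in WT CFA, 2 ranges that do not overlap. It was at 10.6, 8.799, 8.801 and 8.72 CPM in KI vehicle and 8.91, 8.17, 9.49 and 9.39 CPM in KI CFA, which overlap and lie below all WT libraries. The CFA difference was 0.56 ± 0.11 in WT and -0.04 ± 0.11 in KI, an interaction of -0.59 ± 0.15 (log2, SE), and the KI minus WT difference was -0.71 with vehicle and -1.30 with CFA. Without WT vehicle 4 and WT CFA 3 the interaction of Prokr2 was -0.43.

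Oprm1, at chr10:6758593-7038209, encodes the mu opioid receptor, the main target of morphine. Among the other groups Oprm1 was at 32.1, 28.8, 29.7 and 24.1 CPM with vehicle and 30.9, 38.9, 30.01 and 29.3 CPM with CFA in WT, and at 30.8, 28.5, 29.2 and 28.8 CPM with vehicle in KI. KI CFA stood lower, at 17.8, 19.2, 24.2 and 25.5 CPM, without overlap with KI vehicle. The CFA difference was 0.17 ± 0.11 in WT and -0.44 ± 0.11 in KI, an interaction of -0.61 ± 0.16. The kappa opioid receptor gene Oprk1, next after Oprm1 by p among the neuropeptide and opioid genes, was at 2.68, 2.09, 2.66 and 2.38 CPM in KI vehicle and 2.07, 0.863, 1.95 and 1.94 CPM in KI CFA, again without overlap. In WT its 2 groups overlapped, at 3.61, 3.604, 2.91 and 2.66 and 3.4996, 4.04, 2.89 and 3.49 CPM, and its interaction was -0.64 ± 0.31 (unadjusted p = 0.0536, adjusted p = 0.718, edgeR).

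**Figure D1:**
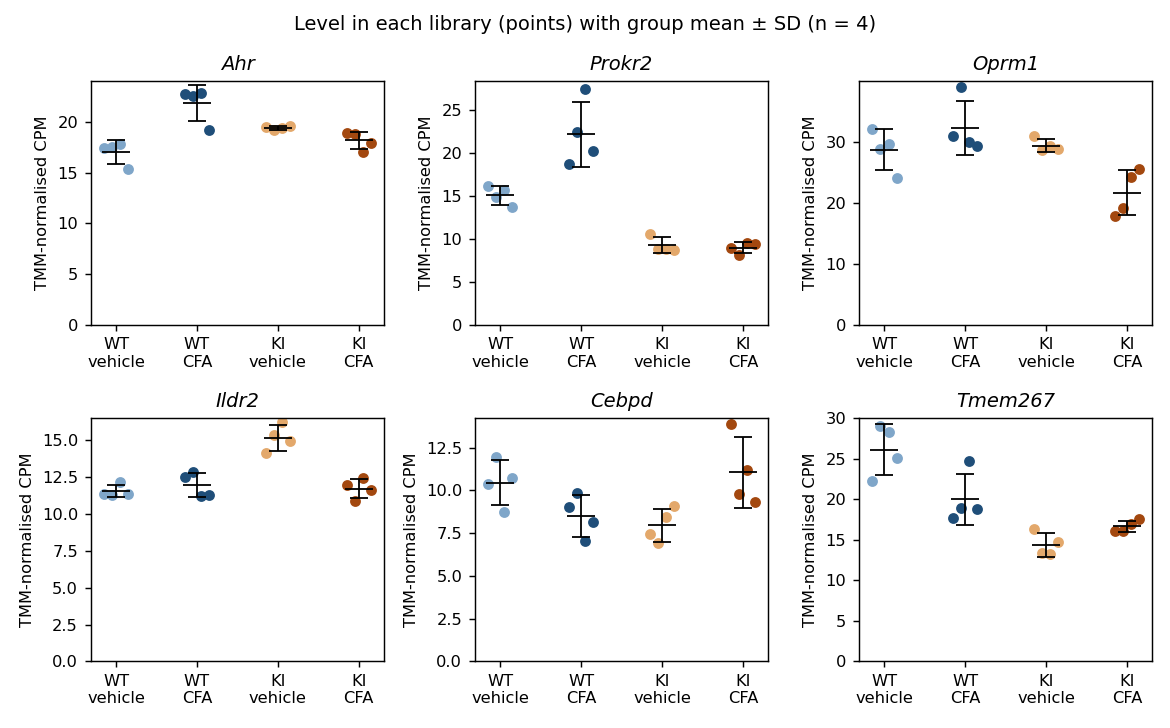
TMM-normalised CPM of 6 genes (vertical axes, linear, from 0) in the 4 groups, each point 1 library and each bar the group mean with its SD (n = 4). Ahr and Prokr2 stood higher in WT CFA than in WT vehicle, Oprm1 and Ildr2 lower in KI CFA than in KI vehicle, Cebpd higher in KI CFA than in KI vehicle, and Tmem267 lower in WT CFA with 1 library in the vehicle range.

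The other negative interactions came from genes of varied roles. Farp1, a guanine nucleotide exchange factor at synapses, had -0.41 ± 0.10, Cttnbp2, a cortactin-binding protein of dendritic spines, -0.48 ± 0.12, and Ildr2, an immunoglobulin-like receptor, -0.43 ± 0.11 on the log2 scale. Ildr2 stood highest in KI vehicle, at 15.2 ± 0.891 CPM (SD, n = 4), against 11.7 ± 0.654 CPM in KI CFA and 11.6 ± 0.416 and 11.98 ± 0.825 CPM in the vehicle and CFA groups of WT. Uba7, the enzyme that activates the ubiquitin-like protein ISG15, had -0.95 ± 0.25, and Pml, the organiser of nuclear bodies and an interferon-inducible gene, had -0.48 ± 0.13. For Pml the vehicle group of KI (16.6 ± 0.959 CPM) was higher than that of WT (12.6 ± 1.43 CPM), and the CFA groups were close, at 14.7 ± 1.23 and 15.6 ± 1.41 CPM. Trabd2b, a membrane metalloprotease that inactivates Wnt proteins, had -1.08 ± 0.30 at levels of 1.25 to 3.71 CPM, and Wdcp, a WD-repeat protein gene, had -0.52 ± 0.13. The uncharacterised transcripts 5330434G04Rik and A630072M18Rik had -0.39 ± 0.09 and -0.54 ± 0.15.

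The positive interactions were led by Tmem267 and Cebpd. Tmem267, a transmembrane protein gene at chr13:119488086-119610459, was at 22.3, 29.02, 28.3 and 25.1 CPM in WT vehicle and 17.7, 18.9, 24.7 and 18.8 CPM in WT CFA. It was at 16.4, 13.4, 13.2 and 14.7 CPM in KI vehicle and 16.1, 16.1, 17.0002 and 17.5 CPM in KI CFA, all below the 8 WT libraries; within each genotype the injection groups overlapped. The CFA difference was -0.39 ± 0.11 in WT and 0.21 ± 0.11 in KI, an interaction of 0.60 ± 0.15. Cebpd, at chr16:15887286-15889545, encodes a transcription factor of the acute-phase response. Its levels were 7.47, 6.92, 8.43 and 9.08 CPM in KI vehicle and 13.9, 9.81, 11.2 and 9.32 CPM in KI CFA, without overlap, against 10.4, 11.98, 8.74 and 10.8 and 9.04, 9.84, 7.02 and 8.16 CPM in WT vehicle and WT CFA, which overlap. Its interaction was 0.77 ± 0.20. Smaller positive values came from Bpgm, which makes the haemoglobin regulator bisphosphoglycerate (0.40), the mitochondrial ribosomal protein gene Mrps15 (0.41), the vesicle-fusion protein gene Bnip1 (0.43), the RNA-binding protein gene Zcchc17 (0.27) and the uncharacterised D130009I18Rik (0.35).

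**Figure D2:**
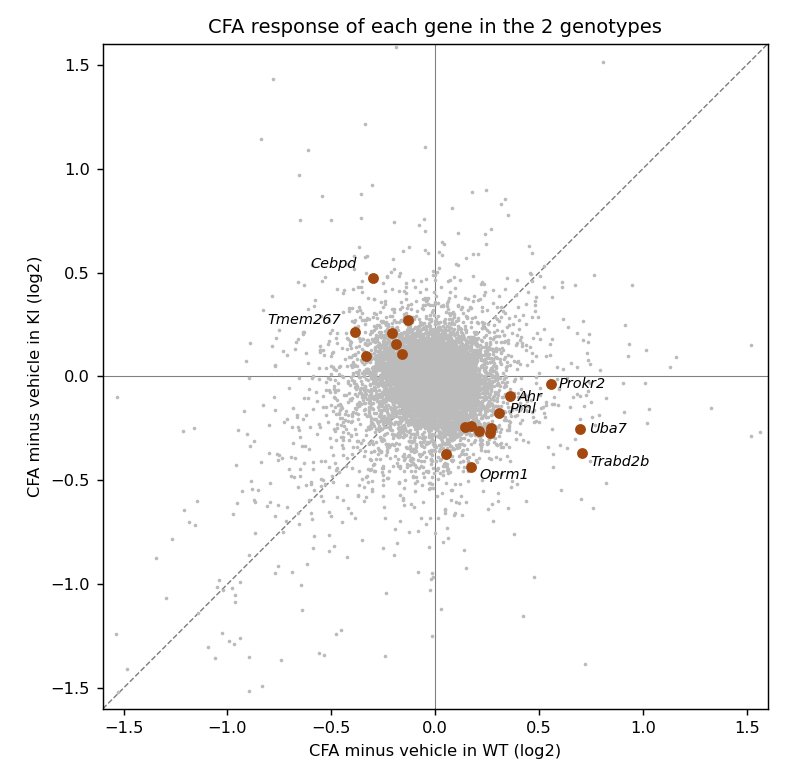
CFA minus vehicle difference (log2) of each gene in WT (horizontal) and KI (vertical); grey points are 13676 of the 13740 genes averaging 1 CPM or more, 64 lie outside the axes, the dashed line marks equal responses, and orange points are 19 of the 20 genes with the smallest interaction p. The orange points lie in the upper left and lower right of the plot, where the 2 genotypes differ in sign.

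Of the 10 genes with the smallest interaction p among the 26 with opposite signs and an unadjusted p under 0.05 in each genotype, 9 are among those above. The other is Ptprz1, a receptor tyrosine phosphatase of glia and neurons. It was at 79.3, 80.01, 81.1 and 83.2 CPM in WT vehicle and 89.3, 97.7, 85.3 and 92.5 CPM in WT CFA, without overlap, and at 87.3, 102, 89.4 and 89.6 and 88.1, 82.7, 88.5 and 78.2 CPM in KI vehicle and KI CFA, which overlap. Its interaction was -0.30 ± 0.08, smaller than that of Ahr.

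Among Trk and neurotrophin genes, the interactions of Ntrk3 and Ngfr were negative and did not pass the adjusted test. Ntrk3 had -0.31 ± 0.20 (95% interval -0.73 to 0.12, unadjusted p = 0.146, adjusted p = 0.718, edgeR), with a value of -0.15 without WT vehicle 4. Ngfr was at 1087, 1114, 968 and 1081 CPM in WT vehicle and 1105, 1119.8, 1215 and 1060.3 CPM in WT CFA, against 736, 653, 718 and 714 CPM in KI vehicle and 679.8, 676, 624 and 692 CPM in KI CFA. All KI libraries were below all WT libraries for Ngfr, the injection groups overlapped in both genotypes, and the interaction was -0.16 ± 0.08. Over the list of neurotrophin ligands and receptors, 15 of 16 members were tested and 0 had an unadjusted p under 0.05 in either direction. The median interaction was -0.09, beside 0.0037 for all genes. Genes of similar span in the genome, a measure described below, had -0.08. Ntf3, the gene for neurotrophin-3, had 0.84 ± 0.52, and Ntrk2, the receptor for brain-derived neurotrophic factor, had -0.19 ± 0.12. In the GDNF family, which supports non-peptidergic nociceptors through Ret, 7 of 10 members were tested. At an unadjusted p under 0.05 was 1 (14.3%, against 2.93% positive of all genes), the co-receptor gene Gfra4, at 0.36 ± 0.13.

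Interferon-stimulated genes, the antiviral and antigen-processing programme that interferons switch on, had the most members at a small p among the lists described here. Of 55 members 54 were tested; 51 had a negative interaction, against 49.1% of all genes, and 27 had an unadjusted p under 0.05, all negative, against 3.37% of all genes. None passed the adjusted test. The median interaction was -0.70, made of a median CFA difference of 0.60 in WT and -0.09 in KI. 1 library moved with this result: WT CFA 2 was the highest of the 16 libraries for 47 of the 54 members (87.0%, against 6.01% of all genes). Without WT CFA 2 the median was -0.34, 49 members were negative and 15 had an unadjusted p under 0.05, all negative; without KI vehicle 2 the latter number was 14. The mean log2 CPM over the members was 2.46, 2.3003, 2.33 and 2.59 in WT vehicle and 2.49, 3.71, 2.97 and 2.67 in WT CFA. In KI vehicle it was 2.34, 2.76, 2.58 and 2.54, and in KI CFA 2.42, 2.32, 2.54 and 2.68. WT CFA 2 and then WT CFA 3 stood above all others, and WT CFA 1 lay within the WT vehicle range.

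Stat2, Parp14, Irgm2 and Usp18 were the list members with the smallest p. Stat2, the transcription factor of type I interferon signalling, at chr10:128270498-128292853, was at 72.9, 74.4, 68.2 and 62.05 CPM in WT vehicle and 85.5, 135, 83.3 and 78.1 CPM in WT CFA. It was at 75.9, 89.9, 77.6 and 77.2 CPM in KI vehicle and 71.9, 70.4, 72.97 and 80.96 CPM in KI CFA. The WT groups did not overlap even though 1 library, WT CFA 2, was far above the rest, and the KI groups overlapped. The interaction of Stat2 was -0.57 ± 0.18, and -0.36 without WT CFA 2. Parp14, an ADP-ribosyltransferase of macrophage activation, was at 21.5, 35.4, 21.4 and 19.6 CPM in WT CFA, above its WT vehicle range of 16.3 to 19.0 CPM, with an interaction of -0.70 ± 0.21. Irgm2, an interferon-inducible GTPase, was at 19.1, 34.6, 19.7 and 18.6 CPM in WT CFA against 11.9 to 15.3 CPM in WT vehicle, with -0.76 ± 0.25. Usp18, which removes ISG15 and dampens interferon signalling, had -1.81 ± 0.57; its WT CFA libraries were at 1.97, 11.01, 6.81 and 2.94 CPM, of which WT CFA 1 lay within the vehicle range of 1.44 to 2.44 CPM. Irgm2 has close relatives in the genome, so how reads were divided among them is uncertain.

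Because these genes moved together between libraries, their promoters were searched for the core of the interferon-stimulated response element, here 2 copies of GAAA separated by any 2 bases, on both strands of the 250 bases before the RefSeq start (GRCm38.p6). It was present for 20 of the 38 list members with a promoter sequence (52.6%), against 376 of 12233 tested genes with one (3.07%). The members were listed as interferon-stimulated genes, so a high share follows from that choice and is no result of these libraries. The promoters of 3 members are shown with the match in capitals. Stat2 and Irgm2 belong to the 4 genes above, and Ifit1, an antiviral RNA-binding protein gene, was chosen after its values were seen for its 2 matches.
Stat2, chr10:128270248-128270497, plus strand: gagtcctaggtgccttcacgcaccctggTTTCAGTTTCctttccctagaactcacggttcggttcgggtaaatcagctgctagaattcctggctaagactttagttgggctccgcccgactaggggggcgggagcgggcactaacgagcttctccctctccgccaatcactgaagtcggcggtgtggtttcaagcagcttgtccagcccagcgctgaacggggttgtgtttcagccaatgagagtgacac
Irgm2, chr11:58214727-58214976, plus strand: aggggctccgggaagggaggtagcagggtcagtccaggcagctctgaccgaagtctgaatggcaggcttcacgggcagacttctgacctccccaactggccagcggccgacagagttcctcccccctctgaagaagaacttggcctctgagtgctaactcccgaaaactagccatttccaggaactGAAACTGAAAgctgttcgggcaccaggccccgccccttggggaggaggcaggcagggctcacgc
Ifit1, chr19:34640639-34640888, plus strand: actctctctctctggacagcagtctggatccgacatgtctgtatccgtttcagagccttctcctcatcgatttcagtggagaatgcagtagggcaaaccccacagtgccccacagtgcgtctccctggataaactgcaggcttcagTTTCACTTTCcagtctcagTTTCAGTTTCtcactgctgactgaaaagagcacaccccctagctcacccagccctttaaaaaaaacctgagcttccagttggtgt
The match of Stat2 begins 222 bases before the start and reads on the minus strand, so it appears as its reverse complement. That of Irgm2 begins 64 bases before the start on the plus strand, and those of Ifit1 begin 104 and 85 bases before it on the minus strand. Ifit1 was at 19.02, 15.9, 14.1 and 17.9 CPM in WT vehicle and 18.4, 92.5, 36.4 and 21.3 CPM in WT CFA, with WT CFA 2 highest, and its interaction was -1.48 ± 0.53; without WT CFA 2 it was -0.75. In KI, Ifit1 was at 17.9, 37.8, 21.9 and 19.1 CPM with vehicle and 17.9, 20.5, 21.1 and 27.7 CPM with CFA, which overlap. Ifit1 belongs to a family of related genes, so how reads were divided among them is uncertain. A match describes letters in this window and does not show binding.

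Antigen presentation genes, which overlap with the interferon programme in function, had a median of -0.26 over 26 of 28 members, with 23 negative and 6 at an unadjusted p under 0.05, all negative, against 49.1% and 3.37% of all genes. Without WT CFA 2, the highest library for 12 of the 26, the median was -0.19. Nlrc5, the transactivator of class I genes, was at 4.71, 9.803, 4.24 and 5.48 CPM in WT CFA against 3.15 to 4.00 CPM in WT vehicle, and its interaction was -1.003 ± 0.30. Ciita, the transactivator of class II genes, was at 1.22, 1.802, 1.296 and 1.95 CPM in KI vehicle and 0.636, 0.921, 0.5199 and 0.738 CPM in KI CFA, without overlap, with -1.57 ± 0.46. The class I gene H2-Q4, whose near-identical relatives make its counts uncertain, had -0.79 ± 0.25, and the class II chaperone gene H2-DMa had -0.36 ± 0.12.

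Neutrophil and marrow markers had the most positive median, and it followed 1 library. Of 16 markers 14 were tested, 0 were negative, against 49.1% of all genes, and the median was 2.37. At an unadjusted p under 0.05 were 8 (57.1%), all positive, against 2.93% of all genes. KI CFA 3 was the highest library for 13 of the 14. S100a9, a calcium-binding protein of neutrophils, was at 5.57, 1.496, 77.8 and 5.34 CPM in KI CFA and between 0.914 and 8.66 CPM in the 12 other libraries. The granule protein genes Ngp and Ltf were at 69.6 and 39.0 CPM in KI CFA 3, and the receptor gene Csf3r at 7.82 CPM. Averaged over the 14 as log2 CPM, the KI CFA libraries were at 0.37, -0.97, 3.88 and 0.68 and the 12 others between -1.10 and 1.03, so KI CFA 3 alone stood out. Without KI CFA 3 the median was 0.45, 4 of 14 were negative and 0 had an unadjusted p under 0.05 by edgeR; without WT vehicle 4 there was 1. The mean log2 CPM of the tested erythroid markers, 3 of 12, was 4.57 in KI CFA 3 and 0.21 to 2.17 in the others. The part of marrow or blood RNA in KI CFA 3 in other interactions was not tested beyond leaving that library out.

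Skeletal muscle genes had a median of -1.48 over 25 of 26 members, with 16 negative (64%, against 49.1% of all genes). The other 9 were positive, and members ran from -3.62 to 4.89. At an unadjusted p under 0.05 by edgeR were 6 (24%), all negative, against 3.37% of all genes. The median CFA difference was -4.22 in KI and -2.67 in WT, so the median was lower with CFA in both genotypes. In WT the mean log2 CPM over the list was 1.02, -1.20, -0.47 and 1.89 with vehicle and -1.36, -1.47, -1.40 and -1.42 with CFA. The highest levels lay in KI vehicle libraries. KI vehicle 1 and 4 were the highest libraries for 11 and 14 members. Ryr1, the calcium release channel of muscle, was at 28.5, 2.31, 4.67 and 34.1 CPM in KI vehicle and between 1.07 and 2.83 CPM in the 12 other libraries. Neb, which encodes the thin-filament protein nebulin, was at 37.02, 3.98, 5.53 and 66.9 CPM in KI vehicle. Txlnb, one of the 20 genes above and known from striated muscle, was at 6.52, 1.14, 1.501 and 7.64 CPM in KI vehicle and 0.605, 0.518, 0.468 and 0.5902 CPM in KI CFA, an interaction of -2.99 ± 0.78. Averaged over the muscle list as log2 CPM, the same 4 KI vehicle libraries were at 5.08, -1.22, 2.12 and 5.02, against -1.47 to 1.89 in the 12 other libraries, so the highest Txlnb values came from the libraries with the most muscle transcripts. Leaving out KI vehicle 1, 3 and 4 gave interactions of -1.13 for Txlnb, -0.34 for Neb, 0.19 for Ryr1 and 0.07 for Cmya5, and a list median of 5.66, with KI vehicle 2 the only KI vehicle library left, whose spread is assumed to be that of the other groups. KI vehicle 3, also left out there, lay nearer to WT vehicle 4 (1.89) and KI CFA 2 (1.64) in the list mean than to KI vehicle 1 and 4. With all 16 libraries Ryr1 had -2.71 ± 0.86, Cmya5, a muscle-anchoring protein gene, -1.896 ± 0.62, and Trim72, a muscle membrane-repair gene, -3.21 ± 0.90.

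**Figure D3:**
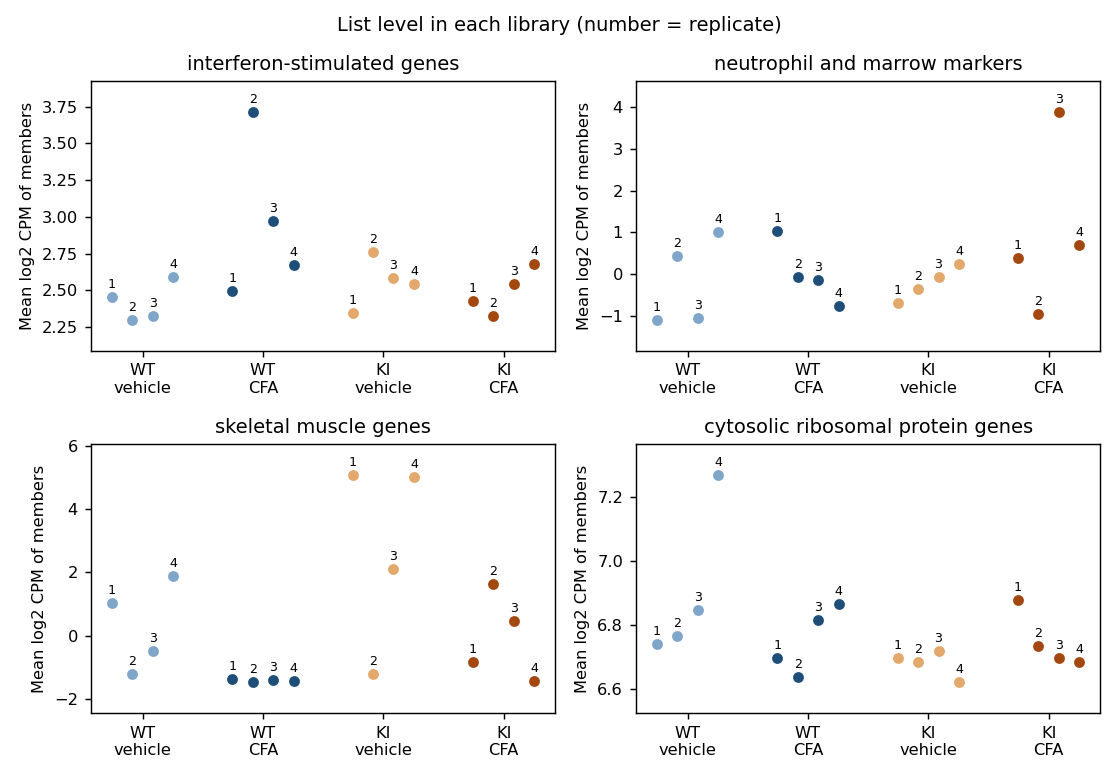
Mean log2 CPM over the tested members of 4 lists (vertical axes, log2 scale, each with its own range) in the 16 libraries, each point 1 library with its replicate number. WT CFA 2 is highest for interferon-stimulated genes, KI CFA 3 for neutrophil and marrow markers, KI vehicle 1 and 4 for skeletal muscle genes and WT vehicle 4 for ribosomal protein genes.

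Genes for sodium and calcium channels, which carry the action potential and gate transmitter release, had a median interaction of -0.18. Of 26 tested members 24 were negative, against 49.1% of all genes. At an unadjusted p under 0.05 were 3 (11.5%), all negative, against 3.37% of all genes. That number ran from 0 without WT CFA 2 to 7 without KI CFA 4. Scn9a, the sodium channel Nav1.7 of nociceptors, was at 591, 581, 573 and 428 CPM in WT vehicle, with WT vehicle 4 the lowest, and 496, 466, 525 and 599.7 CPM in KI CFA, with an interaction of -0.31 ± 0.13. The 2 groups shown differ in both genotype and injection, so they do not give the CFA difference in either genotype. Scn10a, which encodes the nociceptor channel Nav1.8, had -0.19 ± 0.09, and the L-type calcium channel gene Cacna1d -0.45 ± 0.20. Without WT vehicle 4 the list's median was -0.09, with 20 members negative, and Scn9a and Scn10a had -0.21 and -0.12. Potassium and HCN channels, which set resting potential and firing rhythm, had a median of -0.07 over 36 members. At an unadjusted p under 0.05 there were 1 positive (2.78%) and 2 negative (5.56%), against 2.93% and 3.37% of all genes. The positive one was the leak channel gene Kcnk1 (0.23 ± 0.10, 0.0045 without KI vehicle 1, 3 and 4, a fit with 1 KI vehicle library), and the negative ones were Kcnma1 (-0.39 ± 0.17) and Kcnb2 (-0.46 ± 0.21).

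Among GABA, glycine and nicotinic receptors 18 of 21 tested members were negative, against 49.1% of all genes, and the median was -0.17. A negative interaction at an unadjusted p under 0.05 was found for 2 (9.52%, against 3.37% of all genes). They were the nicotinic subunits Chrnb3 (-0.37 ± 0.14) and Chrna7 (-0.24 ± 0.09). Chrna7 was at 43.7, 40.3, 43.5 and 42.6 CPM in KI vehicle and 38.3, 37.4, 34.7 and 38.6 CPM in KI CFA, without overlap, while the WT groups, at 58.2 to 73.6 CPM, overlapped. Receptors for inflammatory mediators had a median of -0.07, with 3 of 31 (9.68%, against 3.37% of all genes) at an unadjusted p under 0.05, all negative. These were the histamine receptor gene Hrh1 (-0.89 ± 0.26), the prostaglandin receptor gene Ptger3 (-0.38 ± 0.14) and Il4ra, a receptor subunit for interleukin-4 (-0.18 ± 0.09). Hrh1 was at 5.298, 4.77, 3.89 and 3.78 CPM in KI vehicle and 4.01, 2.301, 2.37 and 2.78 CPM in KI CFA, where KI CFA 1 reached the vehicle range.

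Axon guidance genes, the semaphorins, ephrins, netrins and their receptors, had 25 of 27 members negative, a median of -0.23 and 8 at an unadjusted p under 0.05, all negative, against 49.1% negative and 3.37% negative at that p among all genes. WT CFA 2 was the highest library for 8 of the 27 (29.6%, against 6.01% of all genes); without it 24 were negative, the median was -0.18 and 3 had an unadjusted p under 0.05, and without KI vehicle 4 or KI CFA 3 there were 4. Nrp1, the semaphorin co-receptor neuropilin-1, was at 87.8, 87.4, 79.6 and 70.5 CPM in WT vehicle and 94.4, 92.4, 88.02 and 90.9 CPM in WT CFA. It was at 96.8, 91.8, 98.4 and 90.6 CPM in KI vehicle and 88.6, 88.5, 86.7 and 89.7 CPM in KI CFA, so the injection groups overlapped in neither genotype and differed in opposite directions. Its interaction was -0.26 ± 0.08, that of Sema5a -0.39 ± 0.12, that of Sema3d -0.43 ± 0.15 and that of the ephrin receptor gene Epha4 -0.60 ± 0.25. Without WT vehicle 4 the list's median was -0.15 with 24 negative.

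Activity and injury genes pointed in both directions. Immediate early genes, which are transcribed within minutes of neuronal activity, had a median of 0.22, with 4 of 20 negative, against 49.1% of all genes. At an unadjusted p under 0.05, 2 were positive (10%) and 1 negative (5%), against 2.93% and 3.37% of all genes. Fos was at 7.88, 5.85, 5.13 and 3.7995 CPM in WT vehicle and 3.91, 3.52, 3.24 and 3.66 CPM in WT CFA, overlapping by 1 library, and 3.60004, 2.86, 3.14 and 3.0999 and 4.01, 2.82, 3.95 and 3.59 CPM in KI vehicle and KI CFA, with an interaction of 0.84 ± 0.26. WT vehicle 1 was the highest library for 5 of the 20 members (25%, against 3.34% of all genes). With 1 library left out, Fos ran from 0.64 without WT vehicle 1 to 0.99 without WT vehicle 4. Btg2, an early-response gene that restrains growth, had 0.59 ± 0.24, and Jun, the AP-1 subunit induced by nerve injury, had the negative value of -0.45 ± 0.13. Jun was at 112, 115, 92.01 and 97.6 CPM in WT vehicle and 134, 148, 139 and 117 CPM in WT CFA, without overlap, and at 125, 112, 111 and 92.2 and 115, 102, 105 and 94.9 CPM in KI vehicle and KI CFA, which overlap. In the axon injury and regeneration list, 18 of 22 tested members were negative, against 49.1% of all genes, with a median of -0.17. At an unadjusted p under 0.05 were 2 (9.09%, against 3.37% negative of all genes), Jun and the transcription factor gene Sox11 (-0.45 ± 0.20). 2 libraries stood apart in this list: its mean log2 CPM was 6.03 in WT CFA 1, the library with the conflicting genotype entry, and 6.01 in WT CFA 2, against 5.36 in each of WT CFA 3 and 4 and 4.70 to 5.6 in the 12 libraries of the other groups. WT CFA 1 and 2 were the highest libraries for 4 and 7 of the 22; the median was -0.14 without either one, with 1 member at an unadjusted p under 0.05 in each case. MAPK feedback genes, which read out Trk and growth factor signalling, had a median of -0.09 over 13 members. Spry4, a feedback inhibitor, had -0.38 ± 0.14, and Etv5, a transcription factor of that pathway, was at 119.6, 137, 116 and 138 CPM in WT vehicle and 151, 147, 180.2 and 141 CPM in WT CFA, without overlap, with -0.23 ± 0.11.

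Lists of neuron identity had few members at a small p. For comparison, 49.1% of all genes had a negative interaction. At an unadjusted p under 0.05, 2.93% of all genes were positive and 3.37% negative. Peptidergic nociceptor markers had -0.07 with 1 of 14 at an unadjusted p under 0.05, Prokr2, and non-peptidergic markers -0.06 with 0 of 14. Itch neuron genes had -0.16, with 9 of 10 negative and 1 at an unadjusted p under 0.05, Hrh1, and C-fibre low-threshold mechanoreceptor markers had -0.12 with 0 of 8. A-fibre and proprioceptor markers had 0.03 with 0 of 17, and neuropeptide and opioid genes -0.06 with 1 of 16, Oprm1. The widths of the confidence intervals of these members were not compared with those of other genes. A low count of members at a small p does not show that the responses were equal.

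**Figure D4:**
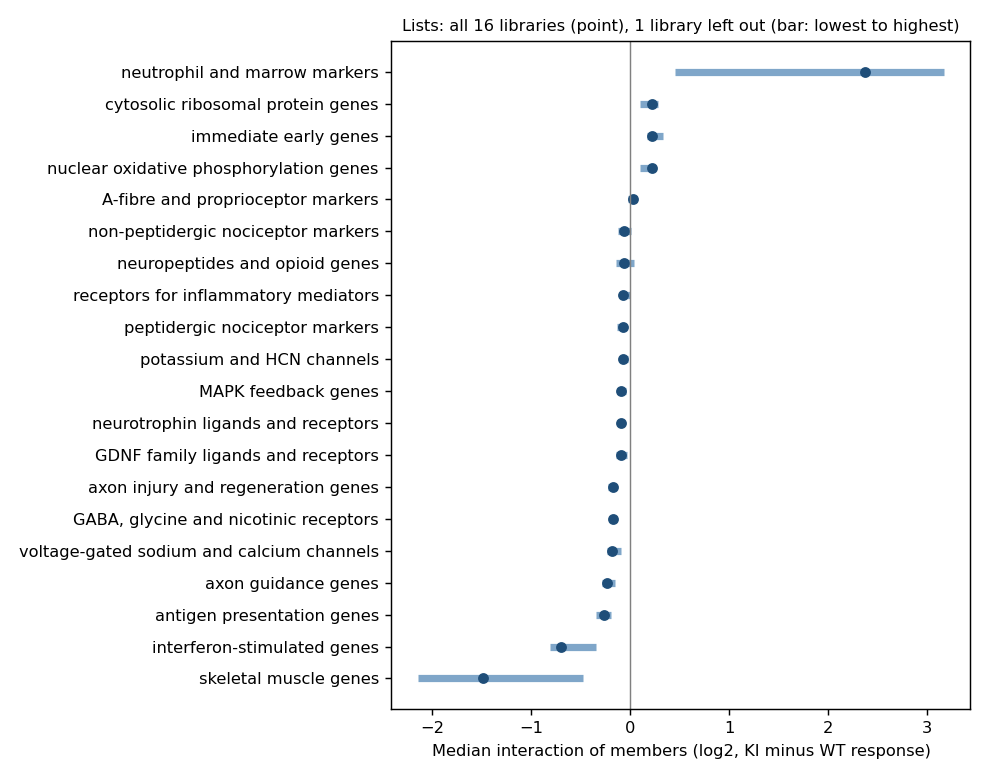
Median interaction (log2, KI response minus WT response, horizontal) over the tested members of 20 lists; points use all 16 libraries and bars run from the lowest to the highest median when 1 library is left out. Neutrophil and marrow markers run from 0.45 to 3.17, skeletal muscle genes from -2.14 to -0.47 and interferon-stimulated genes from -0.80 to -0.34, and the other lists stay nearer to 0.

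Ribosomal protein genes and respiratory chain genes were nearly all on the positive side. Of 51 tested cytosolic ribosomal protein genes 0 were negative, the median was 0.23, and 8 had an unadjusted p under 0.05, against 50.9% above 0 and 2.93% positive at that p among all genes. For nuclear genes of oxidative phosphorylation, 1 of 51 was negative, with a median of 0.22 and 8 at an unadjusted p under 0.05. WT vehicle 4 was the highest library for 51 of 51 and 46 of 51 of these genes, and for 21.4% of all genes. Ndufs6, a complex I subunit gene, was at 46.6, 44.8, 48.7 and 57.8 CPM in WT vehicle and 44.1, 39.2, 45.3 and 47.04 CPM in WT CFA, which overlap. It was at 42.6, 41.98, 40.05 and 41.1 CPM in KI vehicle and 49.6, 52.1, 43.3 and 44.4 CPM in KI CFA, which do not, and its interaction was 0.36 ± 0.11, or 0.28 without WT vehicle 4. The ribosomal protein gene Rps23 had 0.41 ± 0.17, and 0.24 without that library; ribosomal protein genes have many processed pseudogenes, so their counts are uncertain. Without WT vehicle 4 both lists had a median of 0.10. The members at an unadjusted p under 0.05 numbered 2 to 24 for the ribosomal list and 5 to 24 for the respiratory list when 1 library was left out, with 2 of the former without WT CFA 2 and 24 of it without WT vehicle 1.

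The span of a gene in the genome moved with the interaction over all genes. With 15475 genes in 10 equal bins by span, the median interaction went from 0.14 in the shortest bin to -0.12 in the longest. These 2 values were 0.07 and -0.07 without WT vehicle 4. In that library the shortest bin exceeded the longest by 0.48 log2 units relative to the mean of the libraries, against -0.19 to 0.11 in the other 15. Axon guidance and channel genes are long and ribosomal protein genes short: taking for each member the all-gene median of its span bin, the median over members was -0.12 for axon guidance, -0.08 for sodium and calcium channels and 0.14 for ribosomal protein genes, beside the lists' own -0.23, -0.18 and 0.23. The same measure was -0.08 for neurotrophin genes, -0.08 for C-fibre mechanoreceptor markers and -0.05 for potassium and HCN channels, beside the lists' own -0.09, -0.12 and -0.07. It was -0.08 for GABA, glycine and nicotinic receptors, beside -0.17, and 0.09 for immediate early genes, beside 0.22. For interferon-stimulated and axon injury genes it was 0.03 and 0.05, beside -0.70 and -0.17. The part of span in these lists was not tested further.

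**Figure D5:**
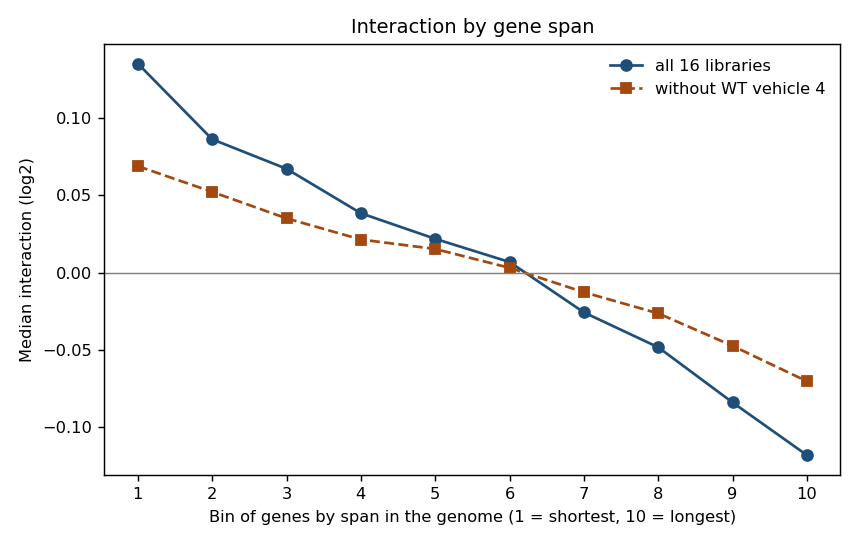
Median interaction (log2, vertical) in each of 10 equal bins of genes ordered by genomic span (horizontal, 1 shortest), for all 16 libraries and without WT vehicle 4. The line for all libraries goes from 0.14 to -0.12 and the other from 0.07 to -0.07.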

How the data were processed

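RNA from 16 libraries was sequenced as single 50-base reads, per the labels' protocols, from 150 ng of total RNA with 15 cycles of PCR. The submitters' processing notes name mm10 as the build, HTSeq 0.6.1p1 among the tools, and also SAMtools 1.5, TopHat2 2.1.1 and Bowtie2 2.3.5.1. The authors deposited 1 table of raw counts per gene; whether counting used strand is not given in the sources used here. Of 24982 entries, 4755 were 0 throughout and 28 carried no gene ID (0.192% of counts); 24891 of 24954 IDs matched the RefSeq table (99.7%).

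From these counts, 15507 genes that passed filterByExpr were fitted with edgeR 4.0.16 (R 4.3.3) by quasi-likelihood with TMM factors, each group having its own mean, with p-values adjusted by Benjamini-Hochberg over all of them. DESeq2 1.42.0, limma 3.58.1, other scalings and filters, covariates and left-out libraries were alternatives. The fit was tested on simulated data. Genes named are the 20 smallest p, the 10 smallest with opposite responses and up to 4 per list described; no gene was called for CFA in either genotype, so none was named for that. 1 gene that the rule gives is not reported here. Members, lists and rules were chosen with earlier results of these data known, so counts over lists are descriptions, and no set test was run. Replicates are pools of 2 mice, and the p-values measure the spread between pools. Same-numbered replicates did not deviate together (24 pairs, r from -0.21 to 0.13). Promoter sequences and gene positions are from RefSeq, GRCm38.p6.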

Additional observations from a re-analysis of the deposited data

Results flagged for a closer look

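In groups of 4 libraries, 30 of 380 gene or list levels (7.9%) had 1 library whose gap to the nearest other exceeded Dixon's 95% limit as a share of the group's range; chance marks about 1 in 20. Most marks in WT CFA fell on WT CFA 2. There Stat2 was at 135 CPM (78.1 to 85.5 in the other 3 libraries of the group), Parp14 at 35.4 (19.6 to 21.5), Irgm2 at 34.6 (18.6 to 19.7), Pml at 17.7 (14.8 to 15.2), Oprm1 at 38.9 (29.3 to 30.9) and Kcnma1 at 51.4 (38.8 to 40.3). In WT CFA 3 Il4ra was at 70.1 CPM (60.3 to 61.5), and in WT CFA 4 Ahr was at 19.2 CPM (22.6 to 22.9), the library nearest to WT vehicle.

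KI CFA 3 stood out in neutrophil genes: S100a9 at 77.8 CPM (1.496 to 5.57 in the other 3), Ngp at 69.6 (1.52 to 7.80), Ltf at 39.0 (0.489 to 2.77) and Csf3r at 7.82 (0.604 to 1.28). KI CFA 2 had Neb at 5.55 CPM, Oprk1 at 0.863 and Chrnb3 at 14.7. KI CFA 4 had Usp18 at 2.61 CPM and a mean log2 CPM of 4.87 over GABA, glycine and nicotinic receptors (4.70 to 4.73 in the others).

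WT vehicle 4 had Rps6 at 349.8 CPM (275 to 280.3 in the other 3), Ndufb5 at 86.9 (65.7 to 68.1), Scn9a at 428 (573 to 591), Csf3r at 2.32 (0.948 to 1.09) and a mean log2 CPM of 6.27 over sodium and calcium channels (6.58 to 6.64). WT vehicle 3 had Ildr2 at 12.2 CPM. In KI vehicle, library 1 had Prokr2 at 10.6 CPM and Cacna1d at 13.8, library 2 had Stat2 at 89.9, Usp18 at 4.43, Ptprz1 at 102 and Bnip1 at 11.8, and library 4 had Ngp at 3.68.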

How the results depend on the processing

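The count of 0 genes with an interaction held under every alternative run, including an adjusted p under 0.1. Unadjusted counts ranged from 509 genes, leaving out KI vehicle 1, 3 and 4 (1 KI vehicle library left, assumed to vary like the other groups), to 2113 with the source number as covariate, and from 640 to 1497 when 1 library was left out; they were 592 leaving out WT CFA 2 and KI CFA 3. For CFA against vehicle, DESeq2 called 24 genes in WT and 15 in KI and limma-voom 1 in WT, and leaving out 1 library gave 0 to 2 genes in WT and 0 to 53 in KI. The 26 genes with opposite responses became 12 with library totals alone, 131 with the source number, 7 with the muscle score and 15 leaving out WT CFA 2 and KI CFA 3, and 12 to 36 when 1 library was left out; the cause was not tested. Of 75 named genes and 2316 values, 2314 kept their direction. Most of these genes were chosen by p in these same libraries, which most alternatives reuse, so a kept direction is favoured by that choice. It is no evidence of an interaction. Ryr1 (0.19) and Cmya5 (0.075) turned positive leaving out KI vehicle 1, 3 and 4, where fewer muscle-rich libraries remain. Of 1298 list medians, 41 moved by more than the spread between replicates. With the replicate number added as a replicate block, 0 genes were called and 902 had an unadjusted p under 0.05; the numbers do not pair the libraries, since 2 of 16 correlated best with their own number. The fit without WT vehicle 4 and WT CFA 3 was chosen after seeing the data and called 0 genes. With 4 libraries per group, a median 95% interval of 0.30 log2 units on either side limits what could be detected.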

Other observations

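None of the lists outside the report had a member that passed the adjusted test by edgeR. For comparison, 50.9% of all genes were positive, and 2.93% were positive at an unadjusted p under 0.05. Cell cycle genes had a median interaction of 0.33, with 19 of 24 positive and 3 at an unadjusted p under 0.05. KI CFA 3, the library with the neutrophil and marrow transcripts, was the highest library for 16 of the 24, and without it the median was 0.021 with 13 positive. NF-kB and acute inflammatory genes had a median of 0.38, with 10 of 12 tested members positive and 4 at an unadjusted p under 0.05. S100a9 belongs both to this list and to the neutrophil and marrow markers. The list's mean log2 CPM was 2.66 in KI CFA 3 and 0.91 to 1.91 in the other libraries. Without KI CFA 3 the median was 0.33 and 0 had an unadjusted p under 0.05 by edgeR.

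Satellite glial cell genes had 0.026 over 15 members and macrophage markers 0.086 over 20. Schwann cell and myelin genes had 0.12, with 15 of 18 positive, against 50.9% of all genes, and 0 at an unadjusted p under 0.05. WT vehicle 3 and 4 were the highest libraries for 6 and 5 of the 18. Collagen and matrix genes had -0.19, with 21 of 30 negative, against 49.1% of all genes. KI vehicle 4 was the highest library for 17 of the 30, and without it the median was -0.10.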
